A study of Mus musculus with 4 samples.

Results

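This account describes how mouse bone marrow-derived macrophages labelled as knockout for OGT answered IL-4, from 1 library at 0 h and 1 library after 24 h. They are 2 of the 4 libraries of the study, and the rest are WT macrophages at the same times. OGT is the enzyme that places single N-acetylglucosamine sugars on serines and threonines of nuclear and cytoplasmic proteins. Per the labels' protocols, bone marrow of both genotypes was grown for 7 days with M-CSF at 20 ng/mL, IL-4 was given at 20 ng/mL for 24 h, and each mRNA-seq library started from 1 µg of total RNA. The 0 h libraries carry the same IL-4 tag as the 24 h libraries and were read as untreated from their time. Labels do not state the strain, age, sex and number of the mice, which piece of Ogt was deleted or what drove any Cre. Among the labels there is no 24 h culture without IL-4, so IL-4 and the added time in culture cannot be told apart.

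Values are FPKM, fragments scaled to transcript length and library size, so levels of different genes can be compared per length. Genes at 1 FPKM or more in either knockout library are described, which held for 11577 of 52476 gene names. The nearest names inside that limit were Zfp966 and Slc9a3r2, whose higher values were 1.001 and 1.002 FPKM, and the nearest outside were C1qtnf1 and Abhd14a, at 0.9993 FPKM each. Each difference is the log2 of (FPKM + 1) at 24 h over (FPKM + 1) at 0 h, and "higher" or "lower" means 2-fold or more on that scale (1 or more, or -1 or less). With 1 library per group nothing could be tested, and no value has an error between cultures. The table gives no counts; from the spacing of its low values, 1 FPKM on a 2 kb transcript stood for about 40.0 fragments at 0 h and 40.5 at 24 h in the knockout. In bulk RNA, fewer cells of a type and less RNA per cell cannot be told apart.

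The targeted gene was read first. Ogt (chrX:101640060-101684351, + strand) went from 27.4 to 29.8 FPKM in WT and from 14.2 to 14.5 FPKM in the knockout. Both knockout libraries were below both WT libraries, and within the knockout the level barely moved with IL-4 (log2 difference 0.02). The value covers every exon of the gene, so a transcript without the deleted part would still be counted. Under rescaling by the median ratio the small difference became -0.03. Mgea5, which encodes the enzyme that takes the sugar off again (now called Oga), had 14.9 FPKM at 0 h and 10.6 at 24 h in the knockout (log2 difference -0.46).

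IL-4 binds a receptor built from IL-4Rα and either the common γ chain or IL-13Rα1, which activates kinases of the JAK family and, through them, the transcription factor STAT6. In mouse macrophages this pathway switches on a state called alternative activation, known for arginase, resistin-like and chitinase-like proteins, lectin receptors, chemokines that draw eosinophils and T cells, and cell fusion. Interferon signalling is the classical counterpart, and SOCS proteins restrain both.

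Of the 11577 genes, 597 were higher at 24 h in the knockout (5.16%), 693 were lower (5.99%) and 10287 lay within 2-fold. The median log2 difference over all of them was 0.03. At 4-fold the shares were 1.07% higher (124 genes) and 1.09% lower (126 genes), and at 8-fold 0.346% higher (40 genes) and 0.285% lower (33 genes). These shares are the background for every count below. The gene lists counted below were chosen with earlier results of these data known, so their shares are no independent results. Shares of lower genes grew with the starting level. The pseudocount of 1 understates differences of low genes, so part of this gradient at low levels is built into the measure. A gene that started under 1 FPKM passed the filter through its 24 h value alone and could not be lower. Among protein-coding genes that started between 1 and 5 FPKM, 4.45% were higher and 3.02% lower, whereas among those that started between 100 and 1000 FPKM, 6.25% were higher and 14.3% lower. Of the 35 that started above 1000 FPKM, 7 were lower and 1 was higher, Cd74.

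**Figure D1:**
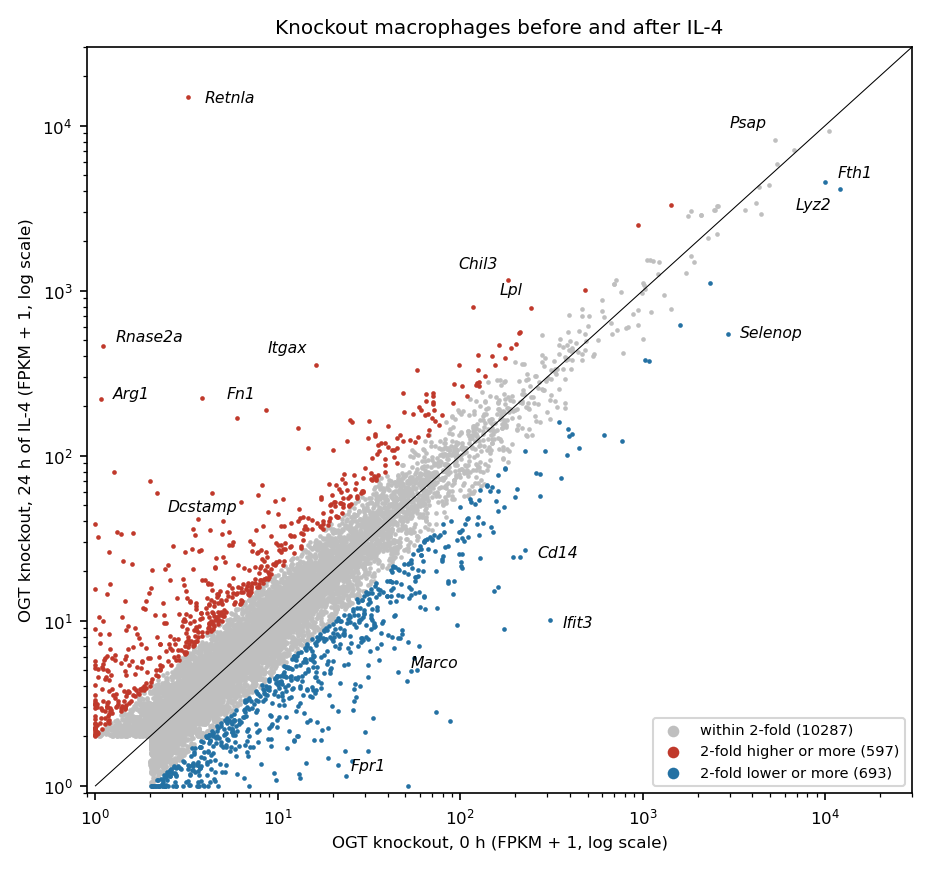
Each point is 1 of the 11577 genes, with its FPKM + 1 in the OGT knockout library at 0 h on the x axis and at 24 h of IL-4 on the y axis, both on log scales; the line marks equal values. The 597 genes 2-fold higher are red and the 693 lower are blue, and Retnla stands alone at 14904 FPKM at 24 h.

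A few genes carried much of the movement in abundance. Ranks here leave out predicted genes, pseudogenes, antigen receptor segments and small or ribosomal RNAs. Retnla, which encodes the secreted resistin-like molecule RELMα, went from 2.23 FPKM at 0 h to 14904 at 24 h and became the most abundant gene of the library, with its share of the FPKM total going from 0.000657% to 4.22%. Its gain was 19.3% of all gains summed over the described genes. Next came Psap, the precursor of the lysosomal saposins, which gained 2883 FPKM (5293 to 8176) without reaching 2-fold, Cd74, the invariant chain of MHC class II (1422 to 3303 FPKM, log2 difference 1.22), and Lgals3, which encodes galectin-3 (942 to 2508 FPKM, log2 difference 1.41). On the losing side, lysozyme Lyz2 (12062 to 4148 FPKM, log2 difference -1.54) and the iron store ferritin heavy chain Fth1 (9982 to 4554 FPKM, log2 difference -1.13) together made up 20.9% of all losses. Selenop, a secreted selenium carrier, followed (2926 to 545 FPKM, log2 difference -2.42). Over all genes, without that exclusion, the 10 highest held 20.0% of the FPKM total at 0 h and 18.7% at 24 h.

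**Figure D2:**
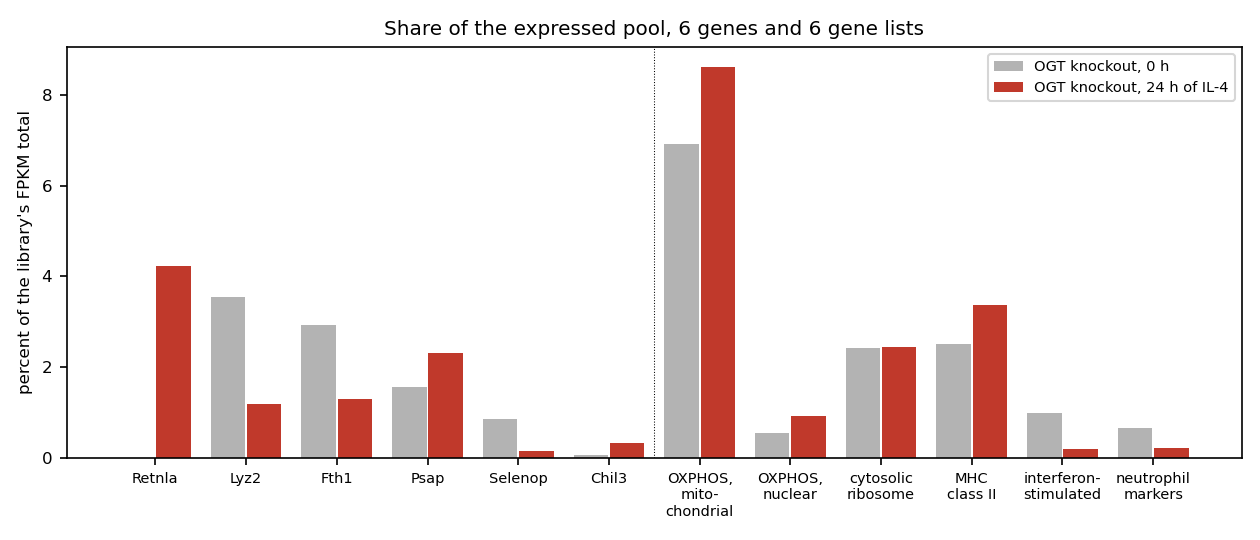
Bars give the percent of each knockout library's FPKM total taken by 6 genes (left of the dotted line) and by the summed members of 6 gene lists (right), at 0 h in grey and at 24 h of IL-4 in red. Retnla took 4.22% of the 24 h library, and the interferon-stimulated list went from 0.994% to 0.187%.

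The receptor and its signalling chain showed little movement. Of 15 members of the list that were expressed, none was higher and 1 was lower (median log2 difference -0.15). That gene was Il13ra1, the chain shared with IL-13 (8.34 to 1.38 FPKM, log2 difference -1.97). Il4ra had 32.6 FPKM at 0 h and 16.5 at 24 h (-0.94), just short of 2-fold, while Il2rg, the common γ chain, had 48.6 FPKM at 0 h and 51.2 at 24 h. Stat6 itself was level, with 51.1 FPKM at 0 h and 52.3 at 24 h in the knockout, against 51.9 and 50.2 in WT. The kinases Jak1 (57.8 to 52.3 FPKM) and Jak3 (4.09 to 2.94 FPKM) were within 2-fold, and Jak2 had 12.8 FPKM at 0 h and 25.9 at 24 h (0.96).

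Feedback inhibitors were higher in part. Among the 8 SOCS and CISH genes, 4 were higher and none lower (median 1.41). Cish, a direct STAT target (0.101 to 8.93 FPKM, log2 difference 3.17), Socs1, which blocks JAK kinases (1.02 to 14.7 FPKM, log2 difference 2.96), and Socs2 (0.0939 to 4.09 FPKM, log2 difference 2.22) were also higher in WT, at log2 differences of 3.41, 3.79 and 2.61. Socs6 differed between genotypes in its values: it went from 6.05 to 29.6 FPKM in the knockout (2.12) and from 10.1 to 9.0 FPKM in WT (-0.16). Socs3 had 2.48 FPKM at 0 h and 0.786 at 24 h (-0.96).

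Transcription factors of alternative activation were higher or level with 1 exception. Of 20 on the list, 10 were higher and 1 lower, with a median of 1.25. Irf4, required for many alternative activation genes (3.33 to 58.4 FPKM, log2 difference 3.78), Klf4, a zinc finger partner of STAT6 (1.67 to 27.6 FPKM, log2 difference 3.42), and Batf3, an AP-1 family factor best known from dendritic cells (2.1 to 25.2 FPKM, log2 difference 3.08), led the list with Nfil3 (6.81 to 57.2 FPKM, log2 difference 2.9). Myc, a growth regulator, went from 1.55 to 16.6 FPKM and Ppargc1b, a coactivator of mitochondrial genes, from 0.464 to 7.81 FPKM. Pparg, a lipid-sensing nuclear receptor, went from 18.7 to 57.1 FPKM (1.56), and the zinc finger gene Egr2 from 3.83 to 14.1 (1.65). The lower gene was Bhlhe41 (7.88 to 2.84 FPKM, log2 difference -1.21), although its relative Bhlhe40 was higher (4.42 to 33.6 FPKM, log2 difference 2.67).

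Genes known to be raised by IL-4 were mostly higher in the knockout. Of 34 expressed members, 29 were higher and none was lower (median 2.99), beside 5.16% of all genes. Members that started under 1 FPKM, such as Arg1 and Rnase2a, passed the filter through their 24 h value alone and could not be lower. Among protein-coding genes that started at 1 FPKM or less, 29.9% were higher. The members are listed because earlier work tied them to IL-4, and 4 of 38 listed were below 1 FPKM or had no match. The list was also drawn up with earlier results of these data known, so its share is no independent result. Arg1, which makes ornithine from arginine (chr10:24915221-24927484, - strand), was at 0.0664 FPKM at 0 h and 219 at 24 h in the knockout, and at 0.122 and 240.4 in WT. Both 24 h libraries were thus far above both 0 h libraries, with log2 differences of 7.69 and 7.75. Retnla was at 2.17 and 12961 FPKM in WT (12) beside 2.23 and 14904 in the knockout (12.17). Rnase2a, an eosinophil-type ribonuclease, went from 0.0999 to 461 FPKM in the knockout; in WT it was listed at 0 and then at 358. The list's median over the same genes in WT was 3.09.

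Other members of that list span several roles. Il4i1, a secreted amino acid oxidase, went from 0.264 to 78.7 FPKM (5.98), and the galactose-binding lectin Mgl2 from 2.86 to 222 (5.85). Pdcd1lg2, which encodes the T cell checkpoint ligand PD-L2, went from 0.311 to 33.5 FPKM (4.72) in the knockout and 0.107 to 42.4 in WT (5.29). Chil3, the chitinase-like protein Ym1, was already at 182 FPKM at 0 h and reached 1164 (2.67); the corresponding WT values were 334 and 1738. The 5 listed genes within 2-fold were the mannose receptor Mrc1 (174 to 282 FPKM, 0.69), the transglutaminase Tgm2 (0.57, beside 1.66 in WT), the β-glucan receptor Clec7a (0.39), Cdh1 (0.95), which encodes E-cadherin, and Clec10a, a lectin related to Mgl2 (-0.49).

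**Figure D3:**
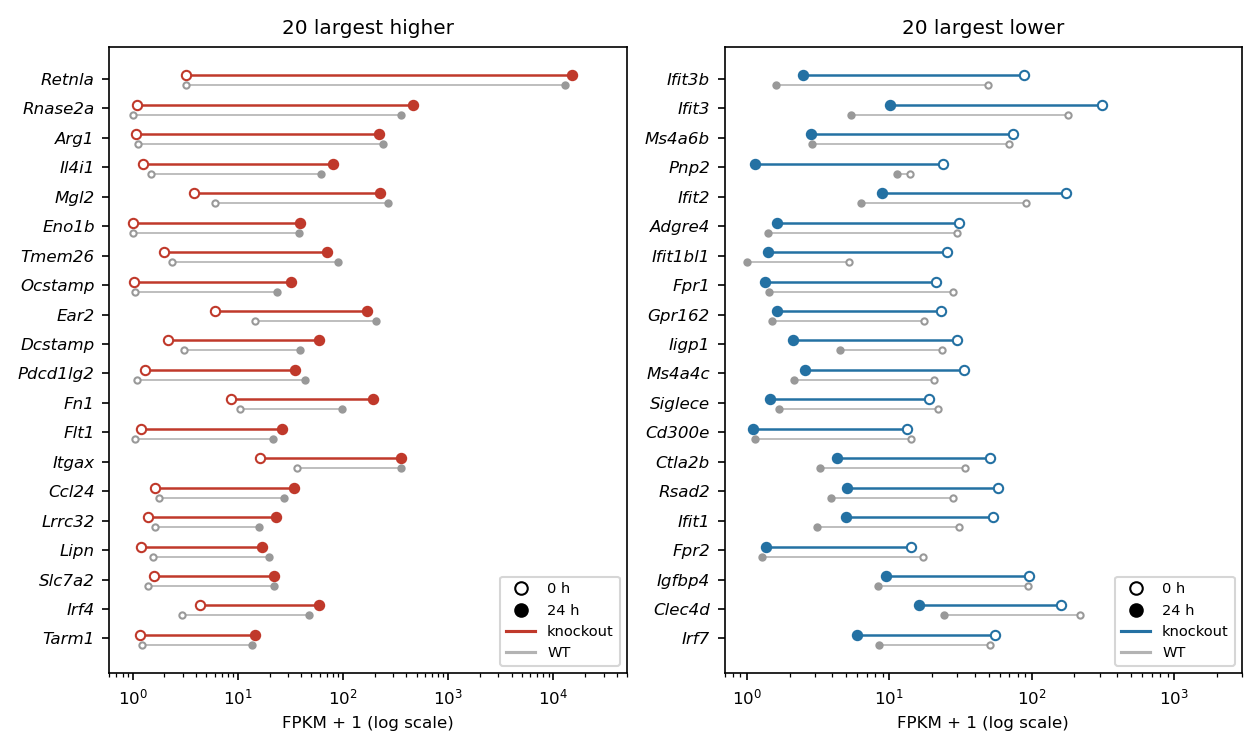
The 20 genes with the largest gains and the 20 with the largest losses on the log2 scale, of those reaching 5 FPKM, as FPKM + 1 on a log scale, with open circles for 0 h and filled circles for 24 h; coloured lines are the OGT knockout and grey lines below them WT, 1 library each. Pnp2 is the gene whose grey line is much shorter than its coloured one. Predicted genes, pseudogenes, antigen receptor segments and small or ribosomal RNAs were left out of the ranking.

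The 20 largest gains in the knockout also held genes of other roles. Eno1b, a copy of the glycolytic enolase Eno1, was listed at 0 at 0 h and at 37.8 FPKM at 24 h, and its reads can be shared with Eno1. Tmem26, a surface membrane protein, went from 0.981 to 69.4 FPKM, Flt1, a VEGF receptor, from 0.19 to 25.2, and Lrrc32, a carrier of latent TGF-β, from 0.407 to 22. Ear2, another eosinophil-type ribonuclease, went from 4.99 to 168 FPKM, Lipn, a lipase, from 0.204 to 15.8, and Tarm1, an activating immunoglobulin receptor, from 0.163 to 13.5. Within the wider group of resistin-like, chitinase-like and ribonuclease genes, 6 of 14 were higher and 3 lower (median 0.52). That median was 2.67 over genes at 5 FPKM or more and 1.09 with a pseudocount of 0.1. The lower ones were Retnlg (6.34 to 0.725 FPKM, log2 difference -2.09), Chil1 (3.98 to 0.722 FPKM, log2 difference -1.53) and Rnaset2a (139.7 to 65.2 FPKM, log2 difference -1.09). Resistin-like and chitinase-like genes thus went both ways, and Retnlg is also on the neutrophil marker list used below. Ear and Rnase2 genes are near-identical copies and the split of reads between them is uncertain.

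Promoter windows were read for the listed genes because STAT6 is known to bind a palindrome with a 4-base gap, spelled TTCNNNNGAA here and searched on both strands in the 250 bases before the RefSeq start (GRCm38.p6). A window was present for 7780 of 9633 protein-coding genes described, and for 20 of the 33 protein-coding IL-4-raised genes; none was present for Arg1, Fn1, Dcstamp or Ccl24. The palindrome occurred in 5.59% of all windows, in 7.22% of those of genes higher at 24 h (28 of 388), in 6.79% of those of lower genes (29 of 427) and in 6 of the 20 windows of the list. Those 6 genes were Ccl17, Il1rn, Itgax, Pdcd1lg2, Retnla and Tmem26. Most of the list was itself among the higher genes, so these shares overlap. The list was chosen for known IL-4 responses, so its share is no independent result. The windows of Chil3, Mrc1, Il4i1, Mgl2 and Rnase2a did not hold these letters. The stretches around the match are shown for Retnla and Pdcd1lg2, which had the largest gains among matching genes once Tmem26, whose stretch overlaps an annotated exon, was left out, with the palindrome in capitals. They lie at chr16:48842414-48842523 for Retnla (+ strand, match starting 145 bases before the start) and chr19:29410787-29410896 for Pdcd1lg2 (+ strand, 82 bases before). A match is a description of the letters and not a site or a cause.
Retnla: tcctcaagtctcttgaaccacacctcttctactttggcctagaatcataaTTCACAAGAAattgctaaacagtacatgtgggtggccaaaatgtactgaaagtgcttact
Pdcd1lg2: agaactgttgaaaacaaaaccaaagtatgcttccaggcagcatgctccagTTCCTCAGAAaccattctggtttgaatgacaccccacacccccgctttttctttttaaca

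Dcstamp and Ocstamp encode membrane proteins that macrophages and osteoclast precursors need to fuse into giant cells. Dcstamp was at 2.07 and 37.6 FPKM in WT and at 1.17 and 58.3 in the knockout, with log2 differences of 3.65 and 4.77; Ocstamp went from 0.0265 to 31.3 FPKM in the knockout and from 0.0444 to 22.4 in WT. For both genes each 24 h library stood above each 0 h library. On the fusion and osteoclast list, 7 of 17 were higher and 1 lower (median 0.91), including the tetraspanin Cd9 (64.2 to 236 FPKM, log2 difference 1.86) and the proton pump subunit Atp6v0d2 (148 to 399.6 FPKM, log2 difference 1.43). The lower gene was Nfatc1, the master factor of osteoclasts (10.4 to 4.2 FPKM, log2 difference -1.13), and the osteoclast enzymes Acp5 (0.91) and Ctsk (0.84) were within 2-fold.

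Fn1, which encodes fibronectin (chr1:71585520-71653200, - strand), was at 7.58 FPKM at 0 h and 189 at 24 h in the knockout, and at 9.4 and 96.9 in WT. Its log2 difference was 4.47 in the knockout and 3.24 in WT, and this gap was not tested. Its exons overlap those of another annotated gene. Integrin chains went both ways. Itgax, the αX chain CD11c, went from 15.1 to 353 FPKM (4.46), its β partner Itgb2 from 202 to 477 (1.23), and Itgb3, the β3 chain, from 2.42 to 19.5 (2.58). Other α chains were lower: Itgam, CD11b (109.6 to 31.1 FPKM, log2 difference -1.78), Itgal, CD11a (35.8 to 6.19 FPKM, log2 difference -2.36), Itga4 (29.6 to 8.49 FPKM, log2 difference -1.69), Itga9 (3.31 to 0.259 FPKM, log2 difference -1.77) and Itga6 (-1.24). Thbs1, thrombospondin, was also lower (91.8 to 16.4 FPKM, log2 difference -2.42). In all, 4 of 20 matrix and integrin genes were higher and 6 lower (median -0.57). Itgam in WT had a log2 difference of -0.88.

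Among matrix proteases, their inhibitors and the urokinase system, 7 of 20 were higher and 1 lower (median 0.30, 1.15 over genes at 5 FPKM or more). The surface protease Adam8 (57.2 to 331 FPKM, log2 difference 2.51), the metalloproteinases Mmp19 (19 to 107 FPKM, log2 difference 2.43) and Mmp12, the macrophage elastase (30.4 to 161 FPKM, log2 difference 2.37), and Adam15 (21.2 to 59.1 FPKM, log2 difference 1.44) had the largest differences. Mmp14, the membrane-type activator of other metalloproteinases, was lower (14.5 to 4.76 FPKM, log2 difference -1.43). Coagulation genes, with 4 of 11 higher and none lower (median 0.01, -0.03 after rescaling by the median ratio and 1.32 over genes at 5 FPKM or more), included factor X, F10 (11.9 to 146 FPKM, log2 difference 3.51), factor VII, F7 (13.7 to 110.0 FPKM, log2 difference 2.92), the urokinase gene Plau (13 to 36.5 FPKM, log2 difference 1.42) and protein S, Pros1 (21.3 to 50.8 FPKM, log2 difference 1.22). Among the protein-coding genes described, F7 and F10 lie next to each other and to Mcf2l on chromosome 8 (12873806 to 13056676), and all 3 were higher.

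Chemokine ligands went both ways, with 7 of 16 higher and 4 lower (median 0.14, -0.10 without the filter on low values). Ccl24, eotaxin-2, which draws eosinophils, went from 0.613 to 33 FPKM (4.4). Ccl22, which draws T cells through CCR4, went from 0.955 to 13.7 FPKM (2.92), and Ccl17, its partner at the same receptor, was listed at 0 and then at 4.19 FPKM. The monocyte attractant Ccl7 (0.507 to 8.26 FPKM, log2 difference 2.62) was higher as well. On the other side Cxcl10 (8.52 to 0.204 FPKM, log2 difference -2.98) and Ccl5 (12.2 to 2.16 FPKM, log2 difference -2.06), which draw T cells and other leukocytes, were lower with Cxcl16 (54.4 to 24.4 FPKM, log2 difference -1.13); Ccl12 went from 1.18 FPKM to 0.

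Receptors for chemoattractants were lower more often than higher, at 11 against 3 of 24 (median -0.80), beside 5.99% of all genes lower. The formyl peptide receptors Fpr1 (20.4 to 0.344 FPKM, log2 difference -4.0) and Fpr2 (13.2 to 0.376 FPKM, log2 difference -3.37), which sense bacterial peptides, had the largest differences, followed by the fractalkine receptor Cx3cr1 (5.0 to 0.173 FPKM, log2 difference -2.35) and S1pr1, a sphingosine phosphate receptor (16.3 to 3.2 FPKM, log2 difference -2.04). The higher ones were the leukotriene B4 receptor Ltb4r1 (2.55 to 11.8 FPKM, log2 difference 1.85), Ccr1 (7.92 to 17.5 FPKM, log2 difference 1.05) and C5ar1, the receptor for complement C5a. C5ar1 was at 12.7 and 41.7 FPKM in the knockout and at 104 and 49.9 in WT, so the knockout at 0 h was the lowest of the 4 libraries and WT at 0 h the highest. Its log2 differences were 1.64 and -1.04.

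Growth factor genes had 5 higher and 3 lower of 17 (median -0.12, 0.46 over genes at 5 FPKM or more). Igf1, the insulin-like growth factor of repair macrophages (47.3 to 122 FPKM, log2 difference 1.34), Pdgfa (1.57 to 5.86 FPKM, log2 difference 1.42) and Hbegf (0.651 to 3.74 FPKM, log2 difference 1.52) were higher with Flt1 and Pros1. Gas6, the bridge between dying cells and the receptors MERTK and AXL, was lower (100.2 to 21.6 FPKM, log2 difference -2.16), as were Bmp2 (6.9 to 1.17 FPKM, log2 difference -1.87) and Gdf15 (3.89 to 1.32 FPKM, log2 difference -1.08). Among 30 genes with an Il symbol, 8 were higher and 8 lower. The higher ones included receptors, such as Il1rl1, the IL-33 receptor (0.398 to 9.56 FPKM, log2 difference 2.92), Il27ra (0.862 to 10.8 FPKM, log2 difference 2.66) and Il6st, the shared chain gp130 (25 to 75 FPKM, log2 difference 1.55), beside Il1rn, the IL-1 receptor antagonist (0.505 to 2.73 FPKM, log2 difference 1.31), which went from 0.841 to 0.67 FPKM in WT. The lower ones included the cytokines Il1b (2.42 to 0.242 FPKM, log2 difference -1.46), Il18 (11.8 to 3.47 FPKM, log2 difference -1.51), Il10 (4.24 to 0.933 FPKM, log2 difference -1.44) and Il15 (8.97 to 3.25 FPKM, log2 difference -1.23). Among the lower genes were also the receptor genes Il13ra1 (-1.97) and Il10ra (-1.17) and the binding protein gene Il18bp (-1.23), so receptors went both ways.

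Listed interferon-stimulated genes were lower past 2-fold with 1 exception. The list was drawn up with earlier results of these data known, so its share is no independent result. All 45 on the list were expressed, 44 were lower, beside 5.99% of all genes, and none was higher. The exception was Ifi47, a GTPase (25.6 to 13.3 FPKM, -0.9). Over the 45 genes the median log2 difference was -1.98. Their summed level went from 3379 to 659.7 FPKM, and the median over the same genes in WT was -1.70. Ifit3, which binds foreign RNA complexes, was at 180.2 and 4.43 FPKM in WT and 309 and 9.12 in the knockout, so the knockout at 0 h was the highest library and WT at 24 h the lowest. Ifit3b (87.2 to 1.48 FPKM, log2 difference -5.15), a near copy of it, Ifit2 (173 to 7.86 FPKM, log2 difference -4.3) and Ifit1bl1 (24.5 to 0.406 FPKM, log2 difference -4.18) followed, and reads of the copies may be shared. Regulators of the response were lower with its effectors: Irf7, the amplifier of type I interferon (54.5 to 4.91 FPKM, log2 difference -3.23), Stat2 (31.8 to 10.8 FPKM, log2 difference -1.47) and Irf9, its DNA-binding partner (17.3 to 8.01 FPKM, log2 difference -1.02). Among the effectors, Rsad2, viperin, went from 57.2 to 4.06 FPKM (-3.53), Mx1 from 58.4 to 6.06 (-3.07), Isg15, a ubiquitin-like modifier, from 85 to 15.9 (-2.35) and Ifitm3, which hinders viral entry, from 769 to 121 (-2.66).

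Many lower genes sit near each other in the genome. Runs were taken along the 9633 protein-coding genes described, so genes under the filter and predicted genes lying between were skipped. Runs of at least 3 such genes in a row, all lower, numbered 20 with 74 genes, against 5 runs with 16 genes all higher. The longest was on chromosome 1 (173468485 to 174031810), with 11 genes of the Ifi200 family from Ifi206 to Ifi205. The Ifit cluster on chromosome 19 (34550694 to 34650009) had 5, Ifit2, Ifit3, Ifit1bl1, Ifit3b and Ifit1. Others were the guanylate-binding proteins Gbp5, Gbp7, Gbp3 and Gbp2 on chromosome 3 (142493978 to 142638008), 2 Schlafen runs on chromosome 11, the Trim12c to Trim30d run on chromosome 7 (104338754 to 104507849), and Ifitm1, Ifitm3 and Ifitm6 on chromosome 7 (140967221 to 141017924). Other runs included Ms4a4c, Ms4a6c and Ms4a6b on chromosome 19 (11404770 to 11531256) and the lectin receptors Clec4n, Clec4d and Clec4e on chromosome 6 (123229843 to 123289870). The longest higher run was Ankrd55, Il6st, Il31ra and Ddx4 on chromosome 13 (112288451 to 112652475).

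The interferon-stimulated response element is a direct repeat bound by complexes that hold STAT2 and IRF9, and its core was searched as GAAANNGAAA. It occurred in 3.62% of all promoter windows, in 13.8% of those of lower genes (59 of 427), in 3.09% of those of higher genes (12 of 388) and in 20 of the 34 windows of the interferon-stimulated list. The palindrome with the 4-base gap occurred in 7 of those 34, and in 2 of the 34 a match of one overlapped a match of the other. With 44 of its 45 genes lower, the list overlaps the lower genes, so their shares are not separate observations. The element is known from interferon-stimulated genes, so the list's share is no independent result. The matches in the windows of Ifit3b (chr19:34607719-34607862, + strand, starting 188 and 154 bases before the start) and Ifit3 (chr19:34583323-34583466, + strand, 156 and 122 bases before) are shown in capitals, since these genes had the largest falls. Matches in both windows read as the opposite strand of the core, and the 144 bases shown had 0 mismatches between the genes.
Ifit3b: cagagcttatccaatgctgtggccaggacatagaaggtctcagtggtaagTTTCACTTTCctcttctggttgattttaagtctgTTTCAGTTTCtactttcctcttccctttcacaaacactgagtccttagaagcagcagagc
Ifit3: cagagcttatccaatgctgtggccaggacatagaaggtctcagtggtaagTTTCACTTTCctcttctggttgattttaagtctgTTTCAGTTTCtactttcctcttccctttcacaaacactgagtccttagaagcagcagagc

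**Figure D4:**
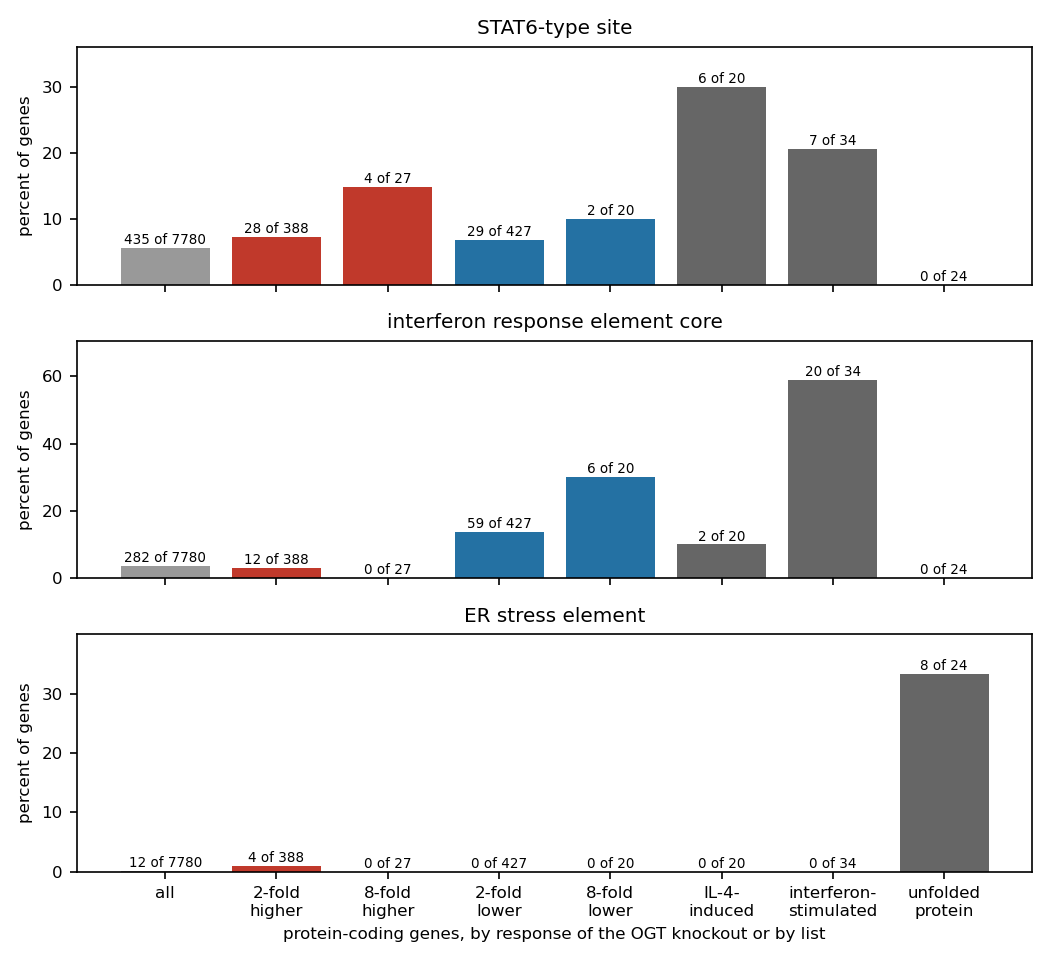
Bars give the percent of promoter windows with at least 1 match to each of 3 motifs, for all protein-coding genes, for those 2-fold or 8-fold higher or lower at 24 h in the OGT knockout, and for 3 gene lists; the counts stand above the bars. The interferon core is in 20 of 34 interferon-stimulated windows and the ER stress element in 8 of 24 unfolded protein windows.

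In all, 10 motifs were searched, and the 3 plotted were picked after their shares were known. Of the other 7, 6 are given here: CACGTG (the E-box of MYC and relatives, 10.4% of all windows, 12.6% of higher and 7.26% of lower genes), TGACNNNGC (the antioxidant element core, 14%, 15.2% and 14.3%), TGACGTCA (the cAMP element, 3.16%, 2.06% and 0.468%), GGGNNTTTCC (an NF-κB-type site, 1.79%, 1.29% and 1.87%), GAGGAAGT (a PU.1-type site, 3.34%, 2.84% and 6.79%) and the sterol element (4 of 7780 windows and none of the higher or lower genes). The cAMP element was thus in 2 of the 427 windows of lower genes and the PU.1-type site in 29. No test was run on these shares.

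Microbial sensing genes were lower or level. Of 30 Toll-like receptor and inflammasome genes, 7 were lower and none higher (median -0.54), and 3 had a positive value. Cd14, the lipopolysaccharide co-receptor, went from 224 to 25.9 FPKM (-3.06), Tlr9, the DNA sensor, from 46.7 to 7.74 (-2.45), Tlr2 from 31.5 to 9.77 (-1.59) and the RNA sensor Tlr7 from 33.8 to 11.2 (-1.52). Tlr4 stayed within 2-fold at 5.67 to 3.1 FPKM. In the NF-κB and inflammatory list 2 of 25 were higher and 5 lower (median -0.21). Nfkbiz, a nuclear cofactor of NF-κB (14.8 to 0.884 FPKM, log2 difference -3.07), and Lcn2, an iron-sequestering protein (35 to 4.77 FPKM, log2 difference -2.64), were lower; Ier3, an early-response survival gene (9.06 to 43.3 FPKM, log2 difference 2.14), and Ccl2 (2.0 to 8.35 FPKM, log2 difference 1.64) were higher. The list's core factors Rela (-0.1), Nfkb1 (0.43) and Tnf (0.0) stayed within 2-fold.

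Genes of resting macrophage identity were lower or level. Of 24 listed, 12 were lower and none higher (median -0.77, -1.10 over genes at 5 FPKM or more), beside 5.99% of all genes. Maf, a factor of mature macrophages (62.9 to 10.9 FPKM, log2 difference -2.43), Fcgr1, the high-affinity IgG receptor (273 to 55.7 FPKM, log2 difference -2.27), and Adgre1, F4/80 (1027 to 378 FPKM, log2 difference -1.44), were lower. The macrophage markers Lyz2 (-1.54) and Itgam (-1.78) were lower with Fcgr1 and Adgre1. Cd14 (-3.06) and Cx3cr1 (-2.35), also on the list, were lower too. The macrophage markers Csf1r, Cd68 and Spi1 stayed within 2-fold. Csf1r, the M-CSF receptor, had 885 FPKM at 0 h and 726 at 24 h. Cd68 had 992 FPKM at 0 h and 966 at 24 h, and Spi1, which encodes PU.1, had 101 and 81.9. Sirpa, the receptor for the signal CD47, went from 383 to 100.5 FPKM (-1.92) in the knockout and from 452 to 312 in WT (-0.53). Of the 12 Fc receptor genes 3 were lower, Fcgr1, Fcgr4 (272 to 76.3 FPKM, log2 difference -1.82) and the kinase Lyn (113 to 53.7 FPKM, log2 difference -1.05), and none was higher (median -0.57); the inhibitory receptor Fcgr2b had 92.1 FPKM at 0 h and 104 at 24 h.

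Surface uptake receptors were mixed. Of 16 scavenger receptors, 5 were lower and 1 higher (median -0.54): Marco (44.7 to 3.92 FPKM, log2 difference -3.22), Stab1 (101 to 24.3 FPKM, log2 difference -2.01) and the lysosomal Scarb2 (59.8 to 24 FPKM, log2 difference -1.28) fell, and the fatty acid receptor Cd36 rose (189.5 to 447 FPKM, log2 difference 1.23). Of 15 C-type lectins, 2 were higher and 6 lower (median -0.26). Mgl2 and Clec4b1 (27.4 to 58.8 FPKM, log2 difference 1.07) were the higher ones, and Clec4d (160.0 to 15.1 FPKM, log2 difference -3.32), Clec4n, dectin-2 (51 to 6.44 FPKM, log2 difference -2.8), Cd302 (52.5 to 13.4 FPKM, log2 difference -1.9) and Clec12a (94.7 to 30.1 FPKM, log2 difference -1.62) were lower. The Ms4a family of membrane proteins had 5 of 8 lower and none higher (median -1.84), with Ms4a6b (72.9 to 1.82 FPKM, log2 difference -4.71) and Ms4a4c (32.3 to 1.56 FPKM, log2 difference -3.7) in the lead; without the filter on low values the median was -0.75. Further large falls were the adhesion receptor Adgre4 (30.2 to 0.636 FPKM, log2 difference -4.25), the inhibitory lectin Siglece (17.9 to 0.468 FPKM, log2 difference -3.69), the activating receptor Cd300e (12.3 to 0.116 FPKM, log2 difference -3.58) and Igfbp4, which binds insulin-like growth factors (95.6 to 8.44 FPKM, log2 difference -3.35).

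Antigen presentation genes of class II were more often higher than lower, and most of class I stayed within 2-fold. Of 13 class II genes, 6 were higher and 2 lower (median 0.85, 1.16 over genes at 5 FPKM or more). Ciita, the master activator of class II (9.97 to 28.6 FPKM, log2 difference 1.43), and the peptide loaders H2-DMa (71.2 to 187 FPKM, log2 difference 1.38), H2-DMb1 (70.0 to 209.7 FPKM, log2 difference 1.57) and H2-DMb2 (3.31 to 12.3 FPKM, log2 difference 1.63) were higher with Cd74 and Ifi30, while the presenting chains H2-Ab1 (394 to 713 FPKM) and H2-Aa (466 to 706 FPKM) had smaller differences (0.85 and 0.6). H2-DMa, H2-DMb2 and H2-DMb1 are neighbours among the protein-coding genes described on chromosome 17 (34119541 to 34160230). The lower genes were the costimulators Cd80 (4.84 to 0.842 FPKM, log2 difference -1.67) and Cd86 (17 to 7.78 FPKM, log2 difference -1.04). In class I, 18 of 22 were within 2-fold, 3 were lower and 1 was higher (median -0.33). Over all genes 5.99% were lower and 5.16% higher. Nlrc5, the class I activator (11.6 to 4.82 FPKM, log2 difference -1.11), H2-Q4 (48.3 to 21.1 FPKM, log2 difference -1.16) and H2-T24 (51.4 to 15 FPKM, log2 difference -1.71) were the lower ones, and Calr, a chaperone of class I folding, the higher. Costimulatory and checkpoint ligands had 1 of 18 higher, Pdcd1lg2, and 6 lower (median -0.19), among them Lgals9, galectin-9 (104 to 29.3 FPKM, log2 difference -1.79), and Icosl (3.83 to 0.363 FPKM, log2 difference -1.82). Cd274, which encodes PD-L1, had 52.8 FPKM at 0 h and 46.6 at 24 h. Complement had C3 higher (42.2 to 107 FPKM, log2 difference 1.32) and 4 of 12 lower (median -0.33), led by factor B, Cfb (6.81 to 0.842 FPKM, log2 difference -2.08), and the decay factor Cd55 (2.78 to 0.0631 FPKM, log2 difference -1.83); the C1q chains C1qa, C1qb and C1qc lay between -0.46 and -0.2.

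**Figure D5:**
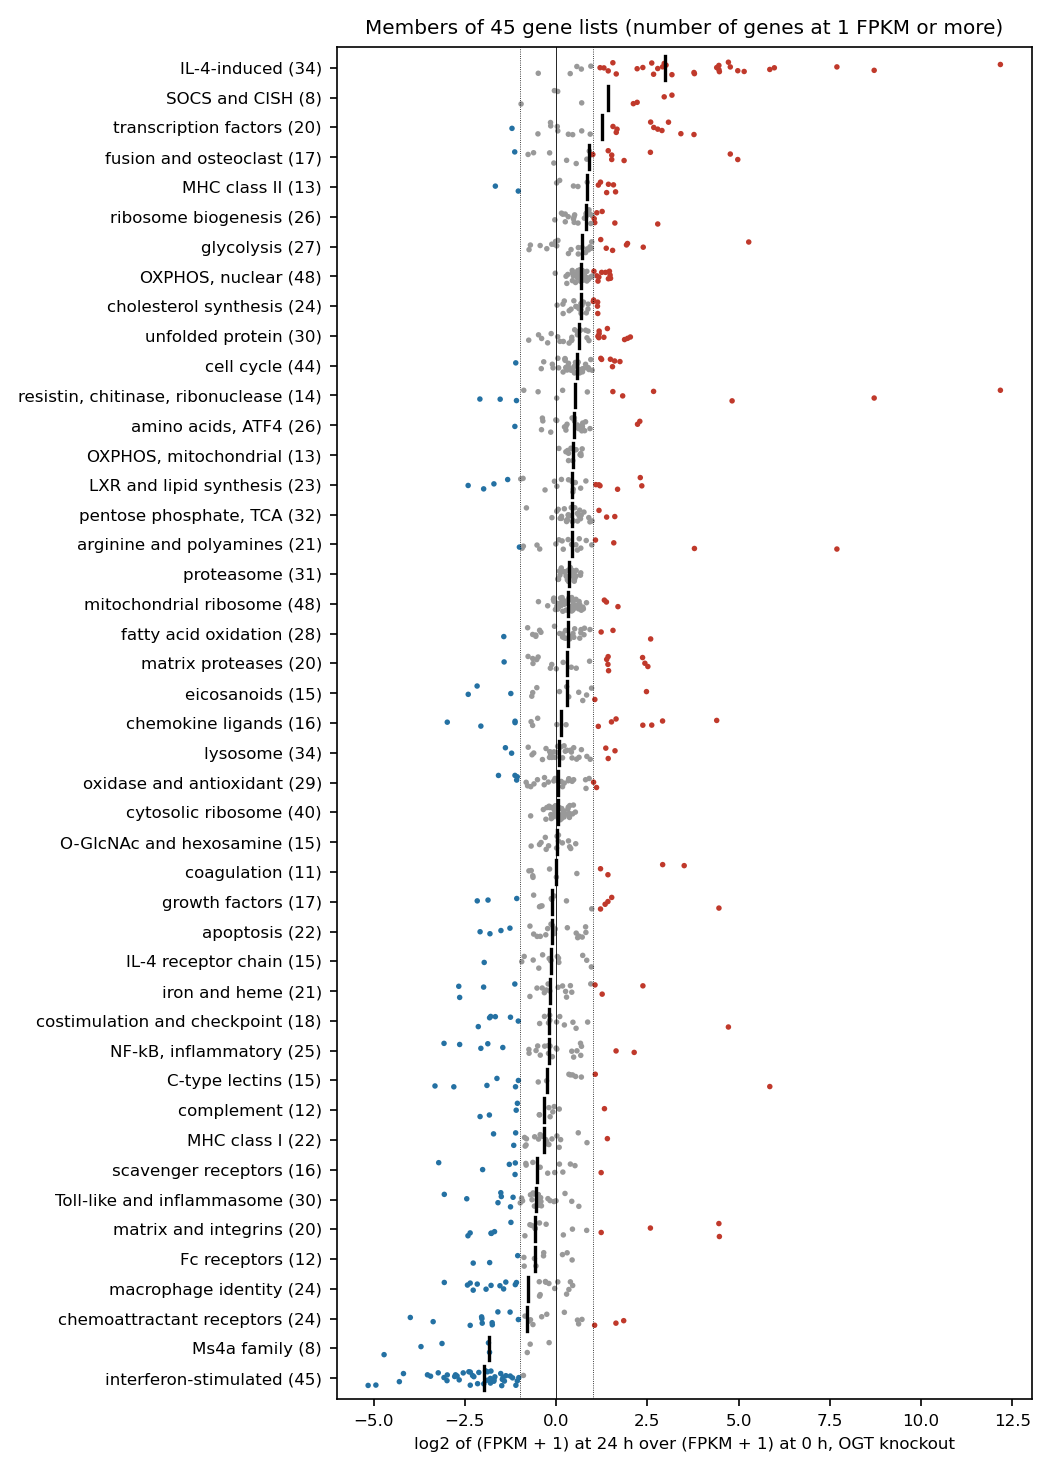
Each dot is a gene of 1 of 45 lists, placed by its log2 difference between 24 h of IL-4 and 0 h in the OGT knockout (x axis); the thick bar is the list's median, the dotted lines mark 2-fold, and the number of genes drawn is in brackets. Medians run from -1.98 for the interferon-stimulated list to 2.99 for the IL-4-induced list.

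Most metabolic genes had positive differences of less than 2-fold. In arginine use and polyamine synthesis, 4 of 21 were higher and 1 lower (median 0.42): Arg1, the arginine importer Slc7a2 (0.594 to 21 FPKM, log2 difference 3.79), spermidine synthase Srm (3.66 to 12.9 FPKM, log2 difference 1.58) and spermine synthase Sms (6.87 to 15.6 FPKM, log2 difference 1.08) were higher, and spermine oxidase Smox, which converts spermine back to spermidine, was lower (5.64 to 2.31 FPKM, log2 difference -1.01). Odc1, which makes putrescine from ornithine, had 6.04 FPKM at 0 h and 11.5 at 24 h (0.82). Among amino acid synthesis and transport genes linked to ATF4, 2 of 26 were higher, the serine enzyme Psat1 (1.81 to 12.8 FPKM, log2 difference 2.29) and the glutamine carrier Slc1a5 (3.52 to 20.2 FPKM, log2 difference 2.23), and the stress sensor Sesn2 was lower (8.68 to 3.42 FPKM, log2 difference -1.13) (median 0.50).

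Glycolysis had 7 of 27 genes higher and none lower (median 0.71). Beside Eno1b they were phosphofructokinase Pfkp (3.59 to 23 FPKM, log2 difference 2.39), the lactate carrier Slc16a1 (3.31 to 15.7 FPKM, log2 difference 1.96), Pgk1 (39.1 to 151 FPKM, log2 difference 1.93), Eno1 and the glucose carriers Slc2a1 and Slc2a6. Ldha (0.97), Pkm (0.97) and Gapdh (0.93) were just short of 2-fold. The TCA cycle and pentose phosphate list had 3 of 32 higher, among them Idh3a (3.72 to 13.4 FPKM, log2 difference 1.61) and Mdh2 (22.8 to 61.1 FPKM, log2 difference 1.38), none lower, and 30 with a positive value (median 0.43).

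Nuclear genes of the respiratory chain were higher or level, with 10 of 48 higher, none lower and 47 positive (median 0.69); over all genes 52.7% were positive. The largest differences were cytochrome c1, Cyc1 (29 to 83.3 FPKM, log2 difference 1.49), the ATP synthase genes Atp5b (62.7 to 176 FPKM, log2 difference 1.48) and Atp5g1 (2.85 to 9.38 FPKM, log2 difference 1.43), and cytochrome c, Cycs (9.42 to 27.7 FPKM, log2 difference 1.46). The 13 mitochondrially encoded genes were all positive, from 0.08 for mt-Co1 to 0.71 for mt-Cytb, and none reached 2-fold (median 0.46). Their summed share of the FPKM total went from 6.93% to 8.64%. Mitochondrial ribosomal proteins had 3 of 48 higher, among them Mrps28 (4.64 to 17.3 FPKM, log2 difference 1.69), none lower and 42 positive (median 0.33). Because FPKM divides by the library total, a gain of 1 very abundant gene lowers the others, and the reverse.

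Cholesterol synthesis had 5 of 24 higher, none lower and every one positive (median 0.68), with Cyp51 (6.12 to 14.7 FPKM, log2 difference 1.14), Nsdhl (4.77 to 11.7 FPKM, log2 difference 1.14) and Sqle (4.19 to 10.4 FPKM, log2 difference 1.13) in front. In the list of LXR targets, apolipoproteins and fatty acid synthesis, 6 of 23 were higher and 4 lower (median 0.43). Higher were the desaturases Scd2 (9.74 to 53.6 FPKM, log2 difference 2.35) and Scd1 (0.681 to 7.31 FPKM, log2 difference 2.31), lipoprotein lipase Lpl (244 to 787 FPKM, log2 difference 1.68) and fatty acid synthase Fasn (2.5 to 7.04 FPKM, log2 difference 1.2). Lower were Apoc2, the activator of that lipase (128 to 23.2 FPKM, log2 difference -2.41), Apoc1 (18.2 to 3.85 FPKM, log2 difference -1.99), the sterol hydroxylase Cyp27a1 (79.4 to 23.7 FPKM, log2 difference -1.7) and Mylip, which degrades the LDL receptor (36.8 to 14 FPKM, log2 difference -1.33). Apoe was at 4407 and 2125 FPKM in WT and at 4176 and 3381 in the knockout, log2 differences of -1.05 and -0.3. Fatty acid uptake and oxidation had 3 of 28 higher, Ppargc1b, Pparg and Cd36, and 1 lower, the lipase inhibitor Angptl4 (4.69 to 1.1 FPKM, log2 difference -1.43) (median 0.31); the gatekeeper Cpt1a had 49.1 FPKM at 0 h and 33.1 at 24 h (-0.56).

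Genes for folding secreted proteins were higher or level. Of 30 in the unfolded protein list, 9 were higher and none lower (median 0.62). Sdf2l1 (30.2 to 127 FPKM, log2 difference 2.03), the disulfide isomerase Pdia4 (33 to 131 FPKM, log2 difference 1.96), Creld2 (12.1 to 46.9 FPKM, log2 difference 1.87) and the calcium-binding chaperone Calr (211 to 559 FPKM, log2 difference 1.4) had the largest differences, and Xbp1, a transcription factor of the response, went from 21.8 to 50.3 FPKM (1.17). Hspa5, the chaperone BiP, had 129.9 FPKM at 0 h and 243 at 24 h (0.9), and the sensors Atf6 (-0.4), Ern1 (-0.48) and Eif2ak3 (-0.14) stayed within 2-fold. The ER stress element, bound by ATF6 with NF-Y, was searched as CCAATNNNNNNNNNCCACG. It occurred in 12 of 7780 windows (0.154%), and 8 of those 12 belonged to the 24 windows of this list: Calr, Canx, Creld2, Dnajc3, Hsp90b1, Hspa5, Pdia6 and Syvn1. The list holds genes through which the element became known, so the share is no independent result. The matches of Creld2 (chr15:88819470-88819588, + strand, 126 bases before the start) and Calr (chr8:84847025-84847143, - strand, 162 bases before) are shown in capitals because these had the largest gains among the matching genes; both read as the opposite strand of the element.
Creld2: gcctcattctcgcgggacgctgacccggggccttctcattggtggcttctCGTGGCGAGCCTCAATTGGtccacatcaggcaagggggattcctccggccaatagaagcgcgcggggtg
Calr: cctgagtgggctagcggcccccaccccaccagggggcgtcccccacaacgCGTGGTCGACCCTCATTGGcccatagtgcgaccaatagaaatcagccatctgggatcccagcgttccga

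In DNA replication and cell division, 6 of 44 were higher, 1 was lower and 39 were positive (median 0.58). The sliding clamp Pcna (70.1 to 238 FPKM, log2 difference 1.75), the helicase subunit Mcm5 (4.41 to 15.4 FPKM, log2 difference 1.6), cyclin D1, Ccnd1 (7.14 to 22.7 FPKM, log2 difference 1.54), and Uhrf1, a partner of maintenance DNA methylation (2.19 to 7.93 FPKM, log2 difference 1.49), were the leading ones. Genes of mitosis stayed within 2-fold, for example Mki67 (5.59 to 7.34 FPKM) and Ccnb1 (0.838 to 1.17 FPKM). Cdkn1b, the inhibitor p27, was the lower gene (8.67 to 3.49 FPKM, log2 difference -1.11), whereas Cdkn1a, the inhibitor p21, had 35.9 FPKM at 0 h and 72.1 at 24 h (0.99). Ribosome biogenesis had 6 of 26 higher, none lower and 25 positive (median 0.82), with Nop16 (7.62 to 25.3 FPKM, log2 difference 1.61) and Dkc1 (2.13 to 6.49 FPKM, log2 difference 1.26) next after Myc. Ribosomal proteins themselves were level, with none of 40 past 2-fold and a median of 0.04 (-0.02 after rescaling by the median ratio). All 31 constitutive proteasome genes had positive values between 0.05 for Psmb1 and 0.67 for Psma4, none past 2-fold (median 0.34).

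Lysosomal genes were mostly level, with 3 of 34 higher and 2 lower (median 0.08). The higher ones were proton pump subunits, Atp6v0a1 (37.9 to 118 FPKM, log2 difference 1.61), Atp6v0d2 and Atp6v1b2 (102 to 263 FPKM, log2 difference 1.36), and the lower ones the proteases Ctsc (109 to 41 FPKM, log2 difference -1.39) and Ctsh (51.3 to 21.5 FPKM, log2 difference -1.22). Of iron and heme genes, 3 of 21 were higher and 4 lower (median -0.17). The importer Tfrc, the transferrin receptor (22.8 to 123 FPKM, log2 difference 2.38), the reductase Steap3 (7.46 to 19.3 FPKM, log2 difference 1.26) and the iron-sensing aconitase Aco1 (18.1 to 39 FPKM, log2 difference 1.07) were higher, and the exporter Slc40a1, ferroportin (42.4 to 5.84 FPKM, log2 difference -2.67), the ferroxidase Cp (8.19 to 1.32 FPKM, log2 difference -1.99), Lcn2 and Fth1 were lower, while ferritin light chain Ftl1 had 4959 FPKM at 0 h and 4399 at 24 h. Eicosanoid genes had Ptgs1, cyclooxygenase-1 (8.62 to 52.5 FPKM, log2 difference 2.47), and Pla2g4a (1.6 to 4.43 FPKM, log2 difference 1.06) higher, and Hpgd, which breaks prostaglandins down (41.2 to 6.95 FPKM, log2 difference -2.41), Hpgds (62.2 to 13.1 FPKM, log2 difference -2.17) and the receptor Ptger4 (3.6 to 0.945 FPKM, log2 difference -1.24) lower, of 15 (median 0.29).

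The NADPH oxidase, which makes superoxide, and antioxidant genes had 2 of 29 higher and 4 lower (median 0.05, -0.01 after rescaling by the median ratio). Cybb, the catalytic subunit (394 to 131 FPKM, log2 difference -1.58), Ncf1 (114 to 51.5 FPKM, log2 difference -1.13) and Rac2 (175 to 83 FPKM, log2 difference -1.07) were lower, and Nqo1, a quinone reductase, was higher (1.03). Srxn1, which restores peroxiredoxins, was lower in the knockout (20.3 to 9.08 FPKM, log2 difference -1.08) and went from 31.5 to 55.9 FPKM in WT (0.81). Gclm, a subunit of the glutathione-making ligase, was higher in the knockout (2.47 to 6.47 FPKM, log2 difference 1.11) and went from 7.59 to 6.53 FPKM in WT (-0.19). Of 22 BCL2 family and death genes, none was higher and 4 were lower (median -0.12): the killers Bmf (11.8 to 2.03 FPKM, log2 difference -2.08), Pmaip1, NOXA (9.01 to 2.51 FPKM, log2 difference -1.51), and Bid (10.0 to 3.59 FPKM, log2 difference -1.27), and the protector Bcl2l2 (5.14 to 0.746 FPKM, log2 difference -1.81). Bid went from 3.75 to 7.7 FPKM in WT (0.87).

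The sugar pathway that OGT draws on did not move past 2-fold at any of its 15 expressed genes (median 0.02, -0.03 after rescaling by the median ratio). Gfpt1, its first and rate-limiting enzyme, had 5.46 FPKM at 0 h and 4.26 at 24 h (-0.3), Pgm3 had 1.47 FPKM at 0 h and 2.25 at 24 h (0.4) and Uap1, which makes the donor UDP-sugar, had 5.93 FPKM at 0 h and 4.74 at 24 h (-0.27). Eogt, which adds the same sugar in the secretory pathway, had the most negative value (-0.69) and Renbp the most positive (0.54).

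Markers of other cell types moved with these groups. Of 15 neutrophil genes 14 reached 1 FPKM in the knockout, 7 were lower and none higher, and their summed level went from 2238 to 750.2 FPKM (3453 to 1117 in WT). S100a9 (1084 to 377 FPKM, log2 difference -1.52), S100a8 (408 to 134 FPKM, log2 difference -1.6) and the granule genes Ngp (446 to 110.0 FPKM, log2 difference -2.01) and Camp (84.8 to 16.4 FPKM, log2 difference -2.3) were among the lower, while Mpo (-0.17) and Csf3r (-0.28) stayed within 2-fold. The part of neutrophils in the lower values of Fpr1, Fpr2, Lcn2 and Retnlg, which they also express, was not tested. Of the B cell genes, 3 of 9 reached 1 FPKM; Cd79b was lower (9.12 to 2.93 FPKM, log2 difference -1.36), Ighm went from 152 to 14.1 FPKM, and Blnk was level at 28.2 to 28.8 FPKM. T and NK cell genes were under 0.1 FPKM at 8 of 10, although Cd4 was lower (18.8 to 2.06 FPKM, log2 difference -2.7). No basophil or mast cell gene of 10 reached 1 FPKM, and 6 of 9 red cell precursor genes were listed at 0 in both libraries. Of 10 dendritic cell genes 2 reached 1 FPKM, Batf3 and Ccr7. Summed monocyte markers went from 275 to 1380 FPKM, with 982 of the gain from Chil3 and 182 from Fn1, both on that list, while Ly6c2 (6.37 to 2.12 FPKM, log2 difference -1.24) and Hp (8.88 to 1.5 FPKM, log2 difference -1.98) were lower.

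Pnp2, a nucleoside phosphorylase whose exons overlap those of another gene, was at 22.8 FPKM at 0 h and 0.152 at 24 h in the knockout, and at 12.9 and 10.4 in WT; its log2 differences were -4.37 and -0.29. The knockout at 24 h was thus low and the other 3 libraries were not. Clmp, an adhesion molecule chosen here after its values were seen, was at 16.2 and 0.884 FPKM in the knockout and at 0.523 and 0.241 in WT, so the knockout at 0 h alone was high. Symbol families with at least 15 expressed members numbered 68. The lowest median was that of the Ifi family, -1.89, with 11 of 16 lower and 1 higher, Ifi30, a thiol reductase of class II presentation (71.5 to 161 FPKM, log2 difference 1.16). The highest median was that of Cox, cytochrome oxidase, at 0.53, with 4 of 22 higher. Solute carriers had 13 of 169 higher and 14 lower, among them the zinc carrier Slc30a4 (3.24 to 34.4 FPKM, log2 difference 3.06) and the fatty acid carrier Slc27a3 (0.0399 to 9.56 FPKM, log2 difference 3.34) on the higher side. Zinc finger (Zfp) genes, the largest family at 236, had 3 higher and 4 lower.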

How the data were processed

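The study measured mRNA of mouse bone marrow-derived macrophages, WT or labelled OGT knockout, at 0 h and 24 h of IL-4, with 1 library per group and no replicates. Reads were processed by the authors with STAR and StringTie on GRCm38 (mm10), per the submitters' processing notes. The authors deposited 1 table of gene values that names no unit; the values were read as FPKM from their form. For the annotation release, strand setting and tool versions: not given in the sources used here. Without strand information, reads of overlapping genes cannot be told apart, and 63 of the 236 genes singled out by the naming rule have exons that overlap those of another gene.

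From the deposited FPKM values, log2 differences with a pseudocount of 1 were computed in Python 3.11.15 (pandas 2.3.3, numpy 2.4.6, matplotlib 3.10.9); the pseudocount understates differences of low genes. GENCODE M21 gave symbols for 52403 of 52550 gene IDs, and values of 1 symbol were summed. The script was tested on simulated data. Depth is not in the files: fragments per FPKM were estimated from the spacing of low values, over a range set after viewing them. Genes were named by rule, with predicted genes, pseudogenes, antigen receptor segments and small or ribosomal RNAs left out of the rankings. The rankings gave the 20 largest differences each way at 5 FPKM or more, the 10 largest gains and losses in FPKM and the 10 highest genes. Up to 4 genes past 2-fold per list and direction were added without that exclusion. Others are given with values. The members and the 45 gene lists and 12 marker lists were chosen with earlier results of these data known. The search of 10 motifs, the starting-level classes and the depth estimate were added after seeing the data. Listed symbols Ear11, Clec6a, C5 and Tm7sf4 (an older name of Dcstamp) were not found. Alternatives were 2 other pseudocounts, 2 other filters, 2 rescalings, protein-coding genes alone and 1 value per gene ID. Promoter sequence came from RefSeq (GRCm38.p6). Some genes and 1 of the motifs searched are not reported here.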

Additional observations from a re-analysis of the deposited data

Results flagged for a closer look

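The 13 genes below had log2 differences between 24 h and 0 h of opposite sign in the knockout and WT and met a further rule: 9 were past 2-fold in both genotypes, and the other 4 were among those singled out by the naming rule. Other genes with opposite signs are not listed. With 1 library per group the difference between genotypes was not tested, so each is given as values.

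Among signalling and receptor genes, C5ar1 had a log2 difference of 1.64 in the knockout and -1.04 in WT. Socs6, a cytokine signalling inhibitor, had 2.12 and -0.16. The adaptor Crk had 1.76 in the knockout, from 6.64 to 24.9 FPKM, and -1.24 in WT, from 22.6 to 8.96 FPKM.

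Among transcription and chromatin genes, Zfp62 had 1.88 in the knockout (1.17 to 7.02 FPKM) and -2.13 in WT (9.13 to 1.32 FPKM). Plagl2 had 1.46 (2.74 to 9.32 FPKM) and -3.05 (21.8 to 1.74 FPKM). Usf3 had 1.55 (0.773 to 4.18 FPKM) and -1.41 (4.12 to 0.922 FPKM), and the Polycomb gene Phc3 had 1.19 (1.5 to 4.7 FPKM) and -1.44 (4.93 to 1.18 FPKM). In these 4 genes the knockout at 0 h was below WT at 0 h and the knockout at 24 h was above WT at 24 h.

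The ubiquitin ligase Rnf6 had -1.17 in the knockout (16.7 to 6.86 FPKM) and 1.26 in WT (6.09 to 16 FPKM). Golph3l, a Golgi protein, had -1.46 (27 to 9.15 FPKM) and 1.09 (10.5 to 23.4 FPKM), and the glycosyltransferase B3gnt2 had -1.03 (33.4 to 15.9 FPKM) and 1.14 (4.34 to 10.8 FPKM). Exons of Golph3l and B3gnt2 overlap those of another gene. The antioxidant genes Gclm and Srxn1 had 1.11 and -1.08 in the knockout beside -0.19 and 0.81 in WT, and the death gene Bid had -1.27 beside 0.87.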

How the results depend on the processing

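The counts of 597 higher and 693 lower genes depended on the pseudocount: 5 gave 272 and 320, and 0.1 gave 963 and 1068. Rescaling by the median ratio gave 552 and 751, and equal totals without mitochondrial genes and small or ribosomal RNAs gave 534 and 703. A filter at 5 FPKM gave 460 and 504, protein-coding genes alone 507 and 576, and no filter or 1 value per gene ID 597 and 693 each. Of the genes singled out by the naming rule none past 2-fold changed sign, and 54 came within 2-fold under at least 1 alternative, all 54 of them with a pseudocount of 5, among them Socs2, Ccl17, Cx3cr1, Gclm and Srxn1; Fdps and Nqo1 did so under rescaling too. The medians of the SOCS list and of the transcription factors became 0.64 and 0.77 with a pseudocount of 5. Without the filter on low values the latter was 0.93. No paired analysis was possible because each group has 1 library and the labels give no replicate numbers, and no library could be left out. Fragments behind low FPKM values limit their precision, and variation between cultures is unknown.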
